A study of Mus musculus with 29 samples.

Results

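The nuclear genes for the subunits of the mitochondrial respiratory chain and of ATP synthase were followed as one set in RNA sequencing of the mouse aortic arch. Members were taken by gene symbol: Nduf followed by a, b, c, s or v and a number for complex I, Sdha to Sdhd for complex II, Uqcr for complex III, Cox followed by a number from 4 to 7 for complex IV, and Atp5 for ATP synthase, here called complex V. Symbols of pseudogenes and Cox7a1 were left out. Of 51456 symbols in the files, 80 matched, and 79 of these reached a value of 1 in 9 or more of the 29 libraries. They were 37 of 37 members of complex I, 4 of 4 of complex II, 8 of 8 of complex III, 13 of 14 of complex IV and 17 of 17 of complex V. The member that was not kept was Cox7b2, whose highest value in any library was 0.0938. The groups follow the names: Ndufa4 carries a complex I name although its protein has been assigned to complex IV, and Atp5s, Atp5sl and Cox7a2l do not code for structural subunits of the complex whose name they carry.

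Complexes I to IV pass electrons from NADH and succinate to oxygen, and the proton gradient that complexes I, III and IV build drives ATP synthase. Most subunits are made from nuclear genes and the rest from mitochondrial DNA. The amount of the chain differs widely between cell types: brown adipocytes and heart muscle cells are rich in it, and vascular smooth muscle cells, the main cells of the aortic wall, hold less. Ucp1, the uncoupling protein that marks brown adipocytes, lets protons return through the inner membrane without making ATP, and fat that contains such cells surrounds the thoracic aorta.

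The mice were male C57BL/6 on chow, with an age of 14 weeks in the labels, the age at which pumps were placed. The vehicle-treated model consisted of mice lacking apolipoprotein E (ApoE KO) with a subcutaneous pump filled with 15.27 mg/mL angiotensin II (AngII) and delivering 0.11 µL/hr that were given vehicle injections (9 libraries, numbered 1 to 9). The Scl-Ab model was the same except for weekly subcutaneous injections of an antibody against sclerostin (Scl-Ab, 10 mg/kg for 4 weeks; 10 libraries, numbered 10 to 19). Wild-type (WT) mice received vehicle in pump and injections (10 libraries, numbered 20 to 29), and because the labels' protocol gives 9 WT mice, n counts libraries. Genotype and AngII differ together between either model group and WT and cannot be told apart. The model animals are those that survived, since the labels record early deaths in both model groups, mostly from rupture of the aorta. Fat around the vessel was scraped off with a swab before freezing, per the labels' protocols. The tissue is a mixture of cells, so fewer cells of a type and less RNA per cell cannot be told apart.

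Values are the authors' FPKM-like values, which are scaled by gene length, so that levels can be compared between genes. For a transcript 2 kb long, a value of 1 stood for 31.7 to 43.6 sequenced fragments, depending on the library. The 12 contractile smooth muscle markers were present in every group, with summed values of 6700 to 21465 in vehicle-treated, 7524 to 18075 in Scl-Ab and 24663 to 28539 in WT libraries. Ucp1 was also present in all 29 libraries. It ran from 21.4 to 856 with a median of 109 in vehicle-treated libraries, from 49.7 to 973 with a median of 229 in Scl-Ab libraries, and from 6.60 to 252 with a median of 151 in WT libraries. Summed markers of adipocytes in general ranged from 741 to 11149, from 991 to 8344 and from 478 to 2987 in the same groups.

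The subunit genes were among the more strongly expressed genes of the arch. In WT libraries the median member had a mean value of 116, against 9.17 for the 13510 genes that passed the same filter, and 65 of the 79 members lay above the 90th percentile of those genes. Each complex had a different ceiling. Uqcrh, the hinge protein of complex III, averaged 430 ± 38.7 (SD, n = 10) in WT, and Cox4i1, the ubiquitous form of complex IV subunit 4, averaged 423 ± 31.2. Atp5b, the catalytic beta subunit of ATP synthase, averaged 341 ± 56.4, and Ndufa4 averaged 313 ± 40.1. Complex II lay lower, from 75.7 ± 5.04 for Sdhc to 101 ± 18.1 for Sdhb. The lowest kept member of complex III was Uqcrfs1, the Rieske iron-sulfur protein, at 64.9 ± 12.96.

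Members below the median of all tested genes numbered 5, and 4 of them were alternative forms of a subunit. These were Cox6a2, the heart and skeletal muscle form, Cox6b2, the testis form, Ndufa4l2, a hypoxia-induced relative of Ndufa4, and Cox4i2, the form of subunit 4 known from lung and smooth muscle. The fifth was Atp5s, a coupling factor with a mean of 4.97 ± 0.553 in WT. Cox4i2 came to 1.52% of Cox4i1 in vehicle-treated, 1.51% in Scl-Ab and 1.68% in WT libraries. Cox6b2 came to 2.33%, 2.31% and 1.81% of Cox6b1 in the same order of groups. Ndufa4l2 came to 3.34%, 3.97% and 2.04% of Ndufa4, and Cox6a2 to 1.01%, 4.72% and 1.103% of Cox6a1. These are group means, and in single Scl-Ab libraries Cox6a2 reached 11.4% of Cox6a1 and Ndufa4l2 11.2% of Ndufa4. On average the ubiquitous forms therefore made up nearly all of the messenger RNA of these subunits in each group. The exception in form was Cox7a2l, which codes for a factor that joins complexes III and IV and stood at 72.0%, 69.7% and 80.8% of Cox7a2. Of the 3 genes for the c subunit of the ATP synthase rotor, Atp5g3 was highest (208 ± 8.74 in WT), Atp5g1 followed (103 ± 7.89) and Atp5g2 was lowest (11.2 ± 1.65).

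The members varied far more between libraries of the model than between WT libraries, while group averages lay close together. The mean log2 level over the 79 members was 6.61 ± 0.476 in vehicle-treated (n = 9), 6.64 ± 0.364 in Scl-Ab (n = 10) and 6.64 ± 0.127 in WT libraries (n = 10; SD). The members' summed value was 1.51 to 3.02% of all values in vehicle-treated libraries, 1.52 to 3.08% in Scl-Ab libraries and 1.72 to 2.31% in WT libraries. The WT range lay inside both model ranges. The median coefficient of variation over members was 37.2% in vehicle-treated, 29.8% in Scl-Ab and 10.7% in WT libraries, against 16.6%, 18.98% and 11.6% over all tested genes. It was larger in the vehicle-treated model than in WT for 78 of 79 members, where 74.9% of all genes showed the same order, and the exception was Cox6b2. Between Scl-Ab and WT the same held for 77 of 79 members and 82.0% of all genes.

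**Figure D1:**
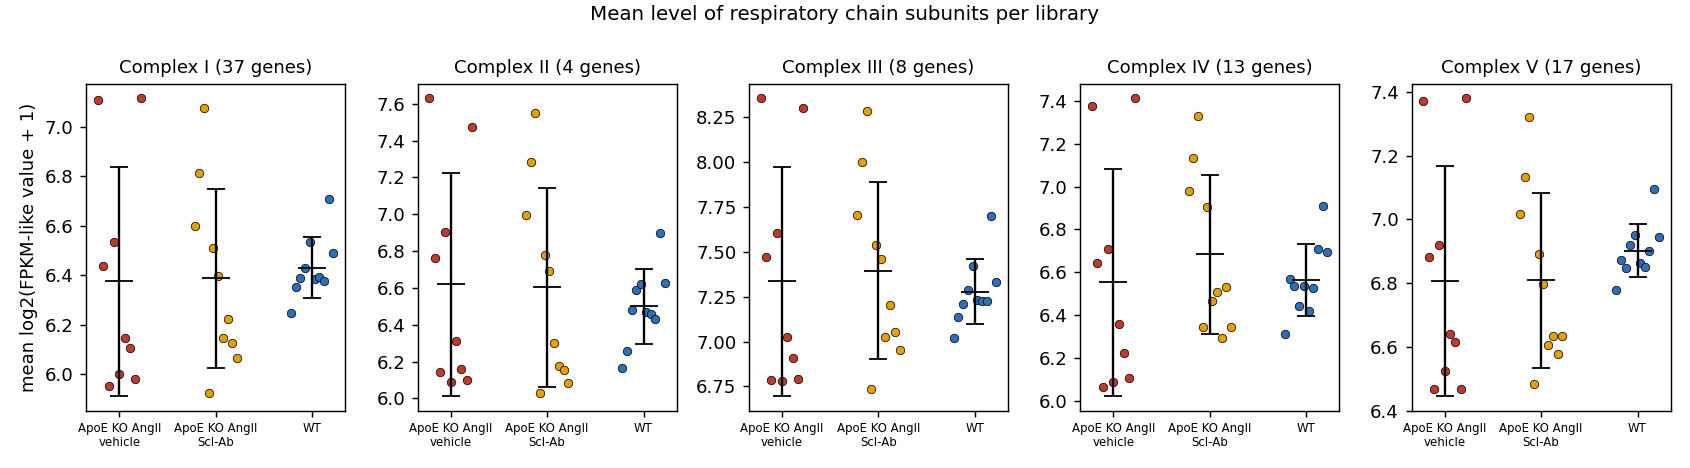
Mean log2(FPKM-like value + 1) over the kept genes of each complex, 1 point per library, for vehicle-treated model, Scl-Ab model and WT libraries; the horizontal bar is the group mean and the whiskers 1 SD. The model libraries spread above and below the WT libraries in all 5 complexes.

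The same few libraries formed the extremes. Vehicle-treated replicates 1 and 9 held the highest value of their group for 46 and 30 of the 79 members, and their Ucp1 values were 856 and 825. Scl-Ab replicate 12, with Ucp1 at 973, was highest for 68 members, and Scl-Ab replicate 13, with Ucp1 at 50.5, was lowest for 56. In WT, replicate 28 (Ucp1 252) was highest for 67 members and replicate 20 (Ucp1 6.60) lowest for 45.

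Nearly all members rose with Ucp1 from library to library. A slope on log2(Ucp1 + 1) was fitted within groups, across all genes and with group means kept in the model. It was above 0 at an adjusted p below 0.05 (limma, Benjamini-Hochberg) for 72 of the 79 members and below 0 for none, while 13.5% of 13509 genes passed above 0 and 17.7% below (31.1% in all). The median slope was 0.18 over members and -0.01 over all genes, so that a doubling of Ucp1 + 1 went with a 1.13-fold higher value in the median member. An alternative added after the data had been seen kept the libraries within the range of Ucp1 that all groups share (49.7 to 252), 2 vehicle-treated, 5 Scl-Ab and 8 WT. In it 8 members passed above 0 and 0 below, against 0.577% and 0.0444% of genes. Single slopes were read in it for a subset of members only. Of these Cox6a2, Cox7a2l and Atp5g3 had slopes below 0 that did not pass (-0.62, -0.10 and -0.03). In the fit over all libraries 12 of 12 contractile smooth muscle markers fell with Ucp1, while 11 of 12 adipocyte, 8 of 10 brown fat, 9 of 12 endothelial, 8 of 11 heart muscle and 1 of 12 macrophage markers rose. The part of these cell types in the slopes of the members was not tested. With heart muscle markers as a second covariate, 67 members passed above 0 and 1 below. The shares of genes given above are not those of that fit. In the fit without these markers, passing members were 35 of 37 in complex I, 4 of 4 in complex II, 8 of 8 in complex III, 11 of 13 in complex IV and 14 of 17 in complex V. Median slopes were 0.18, 0.28, 0.25, 0.20 and 0.14 for complexes I to V. In a joint fit with 1 slope per group, 71 members passed above 0 in vehicle-treated libraries, against 12% of genes above and 14.6% below 0 (26.6% in all). For Scl-Ab libraries 67 passed, against 10.2% and 9.44% (19.6%). For WT libraries 3 passed, against 2% and 0.785% (2.78%). The joint fit uses 1 residual variance per gene for all groups, although members varied less between WT libraries. Its count for WT is therefore not on the same footing as those for the model groups. Separate fits to each group alone called 73, 65 and 19 members, and the shares of genes given for the joint fit do not apply to those counts.

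**Figure D2:**
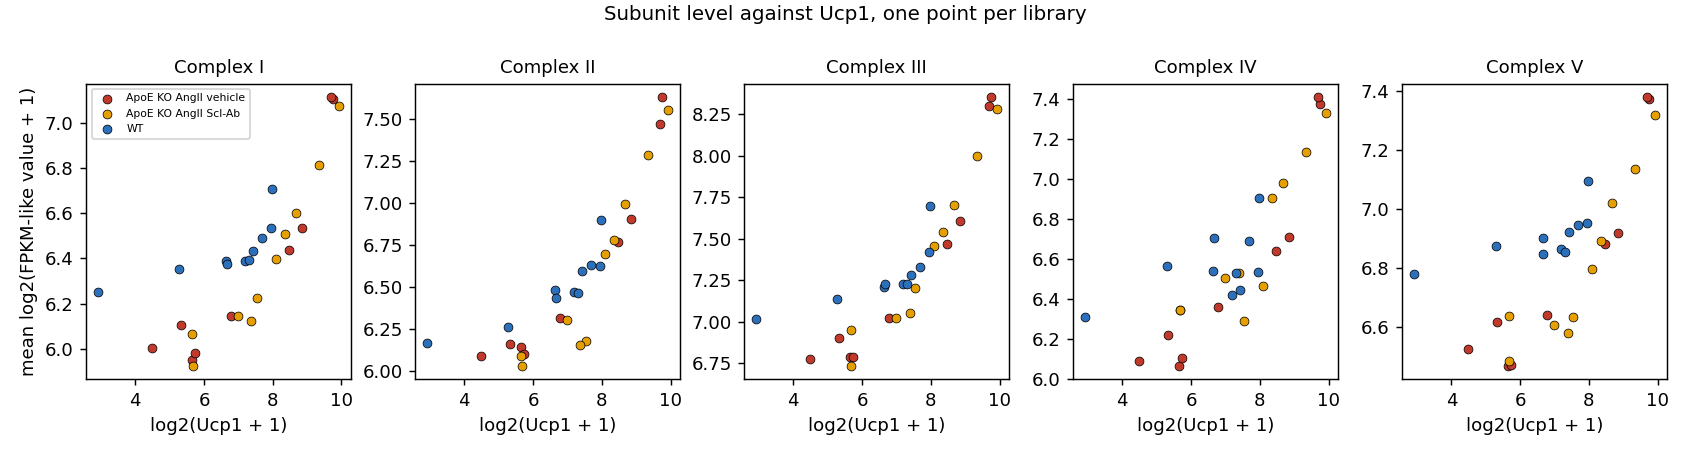
Mean log2(FPKM-like value + 1) of each complex (vertical axis) against log2(Ucp1 + 1) (horizontal axis), 1 point per library, coloured by group. Libraries with more Ucp1 have higher means, and the 2 vehicle-treated libraries and the Scl-Ab library with the highest Ucp1 (856, 825 and 973) stand at the top.

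As a description, the mean of all members and log2 Ucp1 had a Pearson r of 0.93 over 9 vehicle-treated, 0.94 over 10 Scl-Ab and 0.74 over 10 WT libraries, with Spearman rho of 0.87, 0.98 and 0.94. Both measures come from the same library and share its scaling. The weakest relation was that of complex IV in WT (r = 0.55, and 0.30 without WT replicates 20 and 21).

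In complex III, Uqcrfs1 had the steepest slope. It had a lowest, median and highest value of 42.9, 60.3 and 207 in vehicle-treated libraries, 47.1, 77.6 and 184 in Scl-Ab libraries and 47.5, 64.3 and 94.8 in WT libraries. Its slope was 0.34 ± 0.034 (SE, adjusted p = 6.38e-09). The group medians lay near each other and the top ends did not. Uqcrc1, a core protein of complex III, followed with 0.28 ± 0.03 (adjusted p = 2.23e-08), and Uqcrh had the smallest slope of that complex, 0.15 ± 0.02 (adjusted p = 8.79e-07).

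Complex II is the enzyme that the respiratory chain shares with the citric acid cycle. Sdha, its flavoprotein, ran from 68.3 over a median of 83.9 to 269 in vehicle-treated, from 68.8 over 105 to 247 in Scl-Ab and from 64.9 over 92.2 to 129 in WT libraries. The slopes of Sdha and of Sdhb, the iron-sulfur subunit, were 0.31 ± 0.031 and 0.30 ± 0.032, and that of Sdhd, a membrane anchor, was 0.26 ± 0.026. Sdhc, the other membrane anchor, rose less steeply, at 0.12 ± 0.023 (adjusted p = 0.000131).

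In complex IV, Cox5a ran from 92.6 over 131 to 405 in vehicle-treated, from 102 over 170 to 364.5 in Scl-Ab and from 90.6 over 129 to 219 in WT libraries, with a slope of 0.34 ± 0.029 (adjusted p = 3.04e-10). In complex I, the accessory subunits Ndufb8 and Ndufa10 led with 0.31 ± 0.032 and 0.31 ± 0.029 (adjusted p = 1.44e-08 and 1.72e-09). In complex V, Atp5b ran from 253 over 284 to 886 in vehicle-treated, from 275 over 373 to 818.5 in Scl-Ab and from 258 over 346 to 456 in WT libraries. Its slope was 0.28 ± 0.033 (adjusted p = 1.13e-07), and that of Atp5a1, the alpha subunit, 0.23 ± 0.028 (adjusted p = 2.59e-07).

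A slope on Ucp1 did not pass for 7 members, and most of them are alternative or low forms. Cox4i2 had a slope of -0.05 ± 0.027, Cox6b2 of -0.04 ± 0.022 and Ndufa4l2 of 0.07 ± 0.049 (adjusted p = 0.14, 0.13 and 0.296). The c subunit genes were split: Atp5g3 passed at 0.07 ± 0.017 (adjusted p = 0.00282), while Atp5g1 stood at -0.04 ± 0.023 and Atp5g2 at 0.04 ± 0.04 (adjusted p = 0.261 and 0.43). Atp5s and Ndufa11, an accessory subunit in the membrane arm of complex I, completed the 7, at 0.04 ± 0.021 and 0.02 ± 0.02 (adjusted p = 0.19 and 0.404). A difference between the slopes of c subunit genes was not tested.

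**Figure D3:**
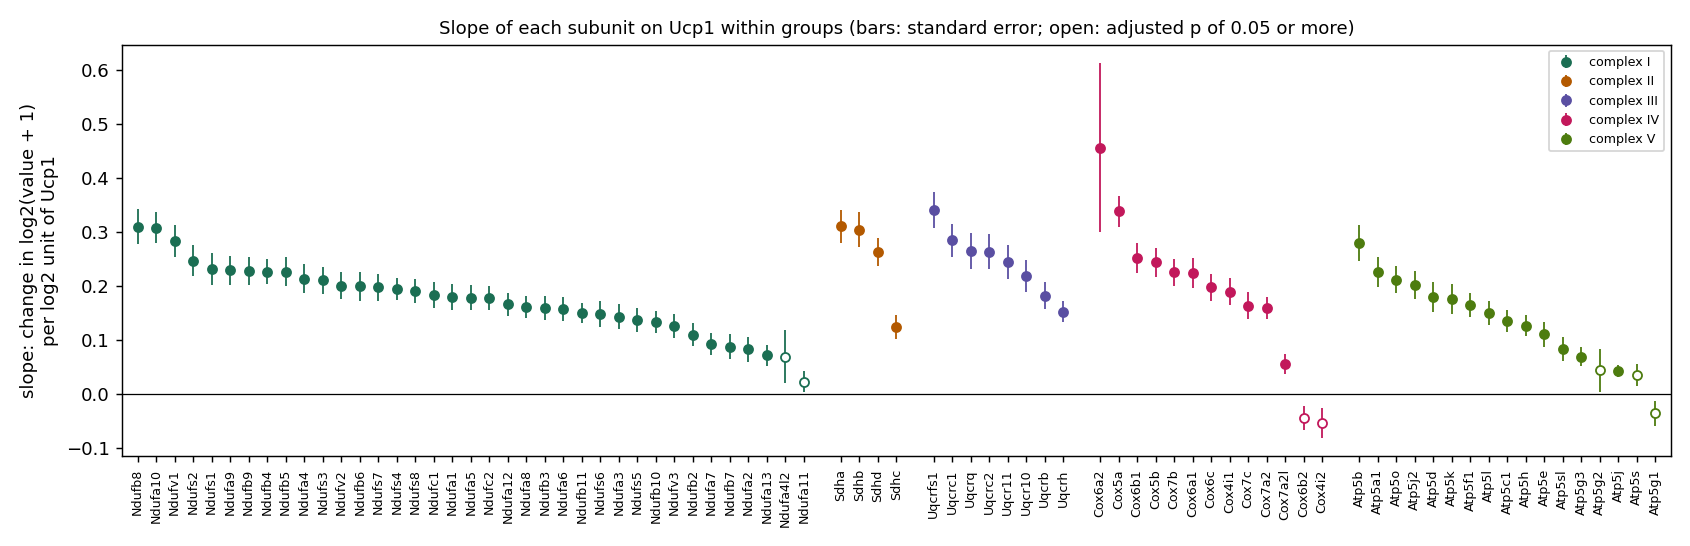
Slope of each of the 79 members on log2(Ucp1 + 1) within groups (vertical axis, change in log2(value + 1) per log2 unit), grouped by complex and sorted within it; bars are standard errors, and open circles are members with an adjusted p of at least 0.05. The slopes are above 0 for all but Cox4i2, Cox6b2 and Atp5g1.

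The promoters of these genes were read because the members move together and because NRF1, GABP, YY1 and the ERR receptors are known regulators of nuclear respiratory genes. RefSeq windows from 250 bases before to 50 bases after the annotated start (build GRCm38.p6) were found for 65 of the 79 members. Letters were searched on both strands, each string on its own, and a window could hold several. The string CGCATGCG, the core of the NRF1 motif, occurred in 9 of 65 members (13.9%), in 4.21% of 9933 tested genes with a window and in 2.07% of all 27025 genes with one. AAGATGGC (YY1) occurred in 11 members (16.9%), against 5.21% of tested and 3.19% of all genes. TNAAGGTCA (ERR) occurred in 3 (4.62%), against 0.88% and 1.43%. CCGGAAGT (GABP) occurred in 4 (6.15%), against 8.90% and 4.31%. At least 1 of the 4 strings stood in 25 members (38.5%), against 17.8% of tested and 10.4% of all genes. A match is a description of letters and not of a bound site.

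The sequences below are 7 of these windows, 5′ to 3′ on the strand of the gene, with the matched letters in capitals. They show the range seen: matches in members with a slope (YY1 in Ndufb8, NRF1 in Uqcrc1, NRF1 and GABP in Uqcr11, ERR on the other strand in Sdhd), no match in Uqcrfs1, which had the steepest slope outside Cox6a2, a match in Ndufa11 (NRF1), whose slope did not pass, and no match in Atp5g1, whose slope did not pass either.
Ndufb8 (chr19:44555393-44555692, minus strand): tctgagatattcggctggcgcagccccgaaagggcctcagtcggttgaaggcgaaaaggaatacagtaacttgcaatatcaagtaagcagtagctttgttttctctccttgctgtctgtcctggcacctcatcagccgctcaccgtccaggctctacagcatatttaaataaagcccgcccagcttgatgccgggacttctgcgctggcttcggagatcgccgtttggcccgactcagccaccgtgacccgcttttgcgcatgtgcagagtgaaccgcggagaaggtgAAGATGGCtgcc
Uqcrc1 (chr9:108936398-108936697, plus strand): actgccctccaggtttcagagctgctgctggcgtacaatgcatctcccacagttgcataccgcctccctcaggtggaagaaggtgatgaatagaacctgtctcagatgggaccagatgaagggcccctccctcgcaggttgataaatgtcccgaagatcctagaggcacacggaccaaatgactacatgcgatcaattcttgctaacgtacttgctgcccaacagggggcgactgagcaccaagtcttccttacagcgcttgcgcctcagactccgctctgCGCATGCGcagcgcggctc
Uqcr11 (chr10:80406772-80407071, minus strand): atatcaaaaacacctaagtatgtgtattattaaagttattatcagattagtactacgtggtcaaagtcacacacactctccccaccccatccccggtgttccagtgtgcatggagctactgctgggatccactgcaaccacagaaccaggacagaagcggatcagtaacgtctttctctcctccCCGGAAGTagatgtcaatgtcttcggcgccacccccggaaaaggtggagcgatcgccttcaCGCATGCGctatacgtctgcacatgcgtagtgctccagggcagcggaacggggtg
Sdhd (chr9:50603800-50604099, minus strand): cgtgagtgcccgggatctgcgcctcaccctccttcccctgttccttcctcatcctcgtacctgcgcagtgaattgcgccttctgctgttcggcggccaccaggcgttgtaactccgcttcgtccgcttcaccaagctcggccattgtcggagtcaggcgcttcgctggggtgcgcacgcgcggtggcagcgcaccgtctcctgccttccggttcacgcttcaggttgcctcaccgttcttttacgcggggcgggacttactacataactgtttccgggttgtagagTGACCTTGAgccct
Uqcrfs1 (chr13:30545267-30545566, minus strand): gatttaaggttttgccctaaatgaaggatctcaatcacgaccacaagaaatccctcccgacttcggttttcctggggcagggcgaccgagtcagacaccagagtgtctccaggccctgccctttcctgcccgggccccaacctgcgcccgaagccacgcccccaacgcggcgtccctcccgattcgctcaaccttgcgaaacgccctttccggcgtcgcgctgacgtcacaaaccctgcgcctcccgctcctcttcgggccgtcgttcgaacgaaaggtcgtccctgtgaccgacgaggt
Ndufa11 (chr17:56717512-56717811, plus strand): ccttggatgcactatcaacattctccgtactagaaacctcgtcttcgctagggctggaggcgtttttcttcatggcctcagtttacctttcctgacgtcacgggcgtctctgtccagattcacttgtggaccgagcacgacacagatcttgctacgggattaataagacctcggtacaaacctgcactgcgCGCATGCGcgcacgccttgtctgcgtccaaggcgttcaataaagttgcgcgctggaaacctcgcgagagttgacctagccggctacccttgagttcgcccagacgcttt
Atp5g1 (chr11:96075582-96075881, minus strand): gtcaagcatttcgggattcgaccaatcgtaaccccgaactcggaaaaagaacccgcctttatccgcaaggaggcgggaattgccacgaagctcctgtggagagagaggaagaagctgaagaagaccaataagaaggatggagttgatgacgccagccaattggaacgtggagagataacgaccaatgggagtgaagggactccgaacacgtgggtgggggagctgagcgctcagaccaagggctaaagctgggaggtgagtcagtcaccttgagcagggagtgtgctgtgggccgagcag
Letters and slopes thus occurred in all 4 combinations. No relation between them was tested.

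Against WT, the vehicle-treated model had lower values of a minority of members, from complexes I, IV and V. At an adjusted p below 0.05, 12 of 79 members were lower and 2 higher, where 31% of the 13510 tested genes were lower and 22.7% higher (53.7% in all), so fewer members than genes in general passed in either direction. The median log2 fold change was -0.06 over members and -0.04 over all genes. Lower members were Ndufa2, Ndufa7, Ndufa11, Ndufa13, Ndufb7, Ndufb10 and Ndufv3 in complex I, Cox4i2 and Cox7a2l in complex IV, and Atp5g1, Atp5j and Atp5sl in complex V. The higher ones were Ndufa4l2 and Cox6b2. No member of complex II or III passed. The call of Ndufa2 was lost in 4 of 12 other settings and without any 1 of 5 libraries, and that of Cox7a2l in 3 of 12 settings.

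Ndufv3, a small accessory subunit of the flavoprotein part of complex I (chr17:31520115-31531331, GRCm38), had values of 85.7, 116 and 181 (lowest, median, highest) in vehicle-treated and 156, 168 and 177 in WT libraries. The vehicle-treated values lay below every WT value except for 2 libraries, those with the highest Ucp1. The log2 fold change was -0.54 ± 0.126 (adjusted p = 0.000769). Ndufb7 and Ndufb10, accessory subunits of the membrane arm, changed by -0.40 ± 0.11 and -0.37 ± 0.125 (adjusted p = 0.00312 and 0.0131).

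Atp5g1 (chr11:96068852-96075670) had values of 60.2, 70.9 and 91.9 in vehicle-treated and 85.6, 104 and 117 in WT libraries. Of the 9 vehicle-treated values 7 lay below the lowest WT value, with a log2 fold change of -0.46 ± 0.094 (adjusted p = 0.000157). The other c subunit genes did not pass: the log2 fold changes of Atp5g2 and Atp5g3 were -0.09 ± 0.158 and -0.09 ± 0.084 (adjusted p = 0.663 and 0.396). Atp5j, coupling factor 6 of the ATP synthase stalk, fell by 0.22 ± 0.056 on the log2 scale (adjusted p = 0.00178), and Atp5sl, also known as Dmac2, a factor for complex I assembly, fell by 0.37 ± 0.105 (adjusted p = 0.00458).

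In complex IV, Cox4i2 (chr2:152754173-152765037) had values of 4.00, 5.43 and 7.40 in vehicle-treated and 5.56, 6.91 and 8.61 in WT libraries, a log2 fold change of -0.32 ± 0.112 (adjusted p = 0.0184) with overlapping ranges. Cox7a2l had 124, 141 and 167 in vehicle-treated and 157, 168 and 189 in WT libraries and changed by -0.24 ± 0.083 (adjusted p = 0.0168). Cox6b2 changed by 0.26 ± 0.092 (adjusted p = 0.0189). The ubiquitous Cox4i1 averaged 416 ± 173 in vehicle-treated (n = 9) and 423 ± 31.2 in WT libraries (n = 10) and did not pass (adjusted p = 0.584).

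Ndufa4l2 (chr10:127514967-127517154) went the other way. It had values of 8.59, 10.3 and 17.05 in vehicle-treated, 5.18, 10.8 and 24.5 in Scl-Ab and 3.51, 6.12 and 8.55 in WT libraries. All 9 vehicle-treated values lay above all 10 WT values, which was so for no other member, while 16.8% of all genes had groups that did not overlap. The log2 fold change against WT was 0.76 ± 0.196 in the vehicle-treated model (adjusted p = 0.00194) and 0.74 ± 0.191 in the Scl-Ab model (adjusted p = 0.00203). In the same libraries contractile smooth muscle markers were lower in the vehicle-treated model than in WT for 11 of 12, where 31% of all genes were lower. Macrophage markers were higher for 12 of 12, where 22.7% of all genes were higher. Summed values of the macrophage markers were 1228 to 3764 in vehicle-treated and 126 to 403 in WT libraries. The part of these cell types in the differences of members was not tested.

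**Figure D4:**
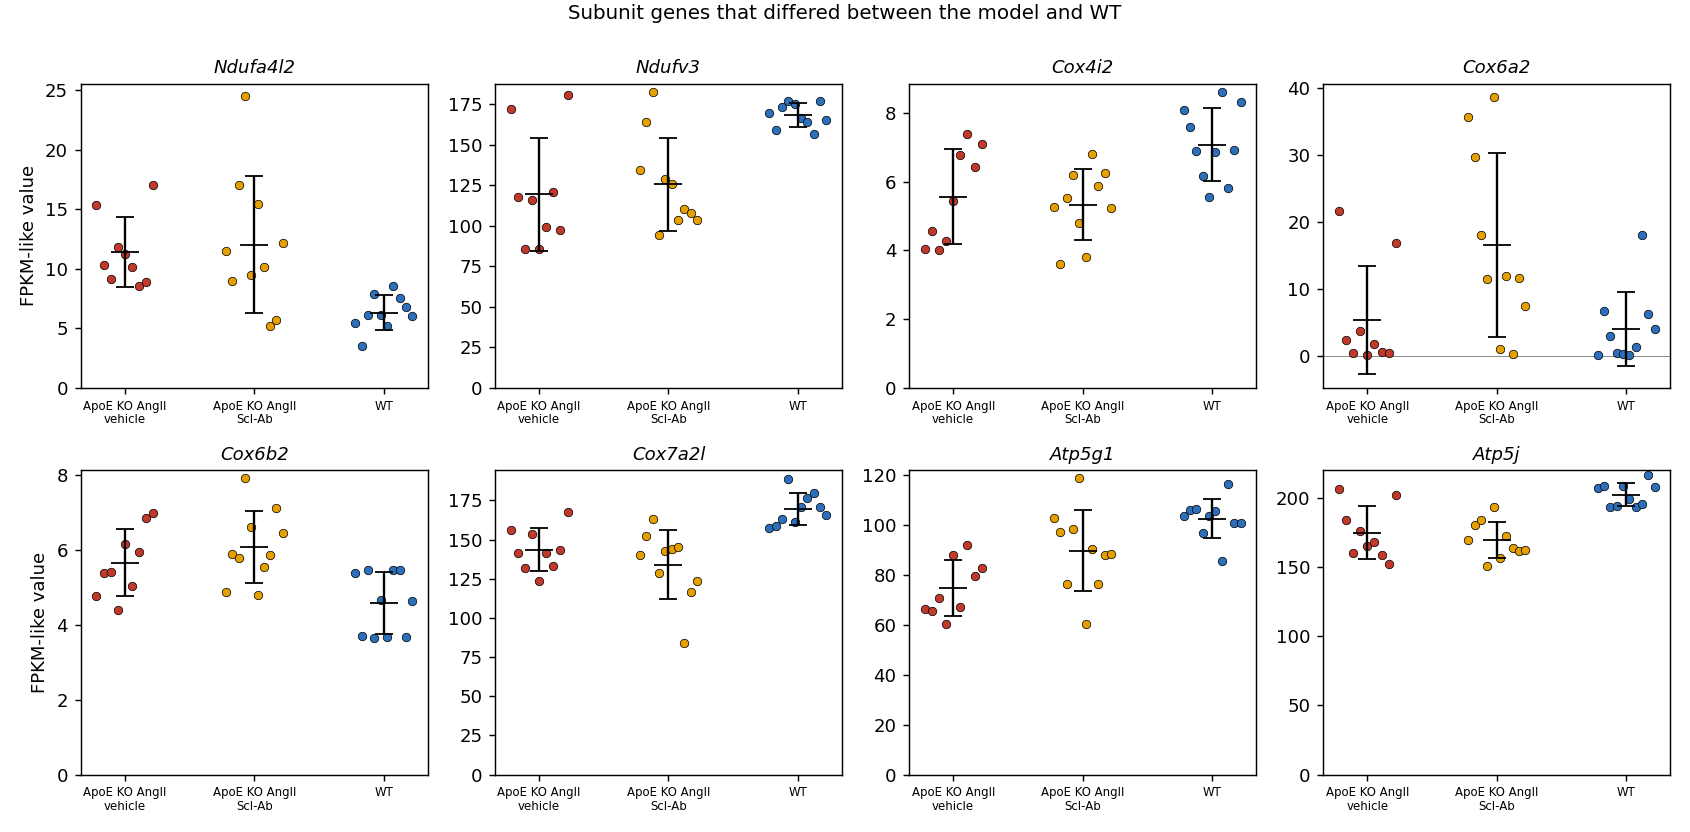
FPKM-like values of 8 members, 1 point per library, for vehicle-treated model, Scl-Ab model and WT libraries; bars and whiskers are the mean and 1 SD. Ndufa4l2 is higher in the model, Ndufv3, Cox4i2, Cox7a2l, Atp5g1 and Atp5j are lower in the vehicle-treated model, and Cox6b2 is slightly higher. Cox6a2 is high in most Scl-Ab libraries and in single libraries of the other groups.

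With Ucp1 taken into account, more members were called lower than WT in the vehicle-treated model than without it. With log2 Ucp1 the share of lower members was near that of all genes, and with Ucp1 on its linear scale it was larger. With log2(Ucp1 + 1) as a covariate, 25 members were lower and 3 higher in the vehicle-treated model, against 31.8% and 24.5% of 13509 genes (56.3% in all), and the median log2 fold change was -0.13 over members and -0.04 over all genes. All 14 members that passed without the covariate also passed with it. By complex, 15 of 37 members of complex I, 1 of 4 of complex II, 0 of 8 of complex III, 3 of 13 of complex IV and 6 of 17 of complex V were lower. With Ucp1 entered on its linear scale, an alternative added after the data had been seen, 57 members were lower and 2 higher, against 31.7% and 24.1% of genes. By complex these were 29 of 37, 2 of 4, 5 of 8, 9 of 13 and 12 of 17, with median log2 fold changes of -0.31, -0.15, -0.24, -0.27 and -0.21. Ndufa4l2 and Cox6b2 were higher in both fits, and Ndufs4, an accessory subunit of the hydrophilic arm, only with log2 Ucp1 (0.20 ± 0.084, adjusted p = 0.0439). Ndufv3 stood at -0.60 ± 0.088 with log2 and at -0.70 ± 0.053 with linear Ucp1 (adjusted p = 1.91e-06 and 1.57e-11). Cox4i1 stood at -0.21 ± 0.1 and at -0.35 ± 0.049 (adjusted p = 0.078 and 7.9e-07), and Uqcrh at -0.16 ± 0.079 and -0.28 ± 0.043 (adjusted p = 0.0815 and 4.76e-06). Of the members with the 2 steepest slopes of each complex, Uqcrfs1, Cox5a, Cox6a2, Sdha and Atp5b passed in neither fit, while Ndufa10, Ndufb8, Uqcrc1, Sdhb and Atp5a1 were lower with linear Ucp1 alone (-0.39 ± 0.073, -0.25 ± 0.073, -0.29 ± 0.069, -0.20 ± 0.069 and -0.18 ± 0.07, adjusted p = 7e-05, 0.00486, 0.00072, 0.0134 and 0.0276). The number of lower members thus depended on how Ucp1 entered the fit. With log2 Ucp1 in the fit, 11 of 12 contractile smooth muscle markers were lower and 12 of 12 macrophage markers higher than in WT, and their part in the result was not tested.

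Libraries low in Ucp1 can be set side by side. Vehicle-treated replicates 3, 5, 7 and 8, with Ucp1 of 48.9, 21.4, 39.0 and 52.8, had mean log2 levels of 6.18, 6.21, 6.32 and 6.20 over the 79 members. Scl-Ab replicates 13 and 19, with Ucp1 of 50.5 and 49.7, had 6.20 and 6.33. WT replicates 20 and 21, with Ucp1 of 6.60 and 38.0, had 6.45 and 6.58. In these 8 libraries, all those with Ucp1 under 60, the WT values were higher than every model value. In a further fit, added after the data had been seen, the 4 libraries at the ends of the Ucp1 range were left out. These were vehicle-treated replicates 1 and 9, Scl-Ab replicate 12 and WT replicate 20. Without any covariate 38 members were then lower and 2 higher in the vehicle-treated model, against 27.7% and 21.7% of all genes in that fit. Vehicle-treated replicates 1 and 9 had been highest in their group for 46 and 30 members, and WT replicate 20 lowest for 45. Leaving them out by itself shifts members towards lower values in the model, so no conclusion is drawn from this count.

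**Figure D5:**
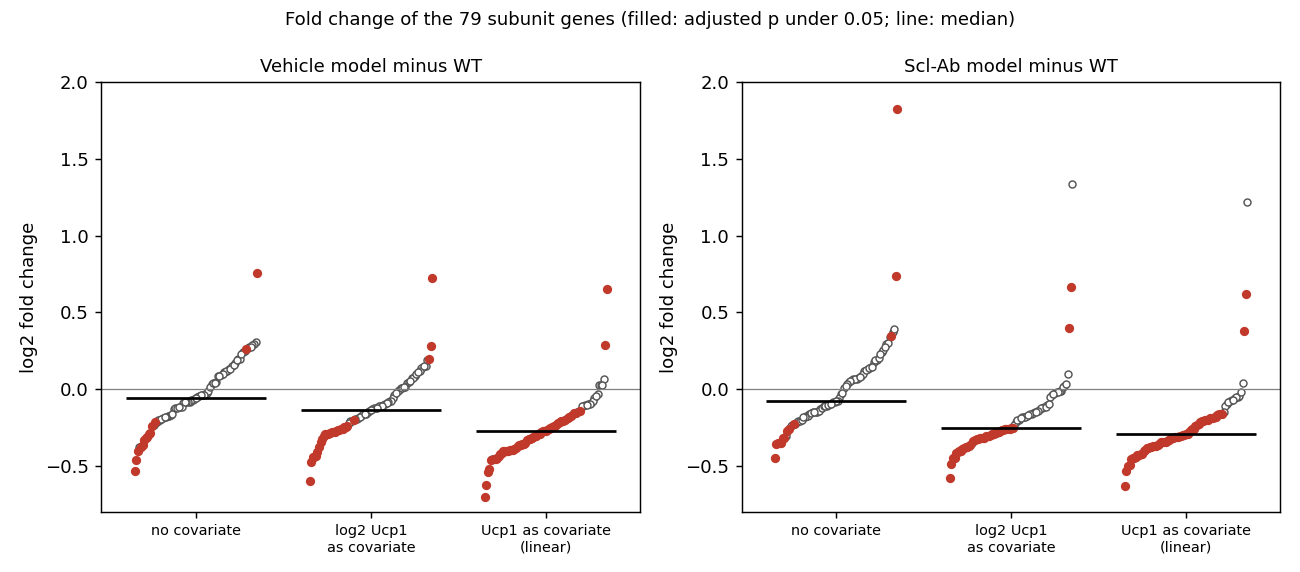
Log2 fold change of the 79 members against WT, sorted from low to high, in the vehicle-treated model (left) and the Scl-Ab model (right), with no covariate, with log2 Ucp1 and with Ucp1 on its linear scale as covariate; filled points passed at an adjusted p below 0.05 and the line is the median. The medians for the vehicle-treated model are -0.06, -0.13 and -0.27.

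Scl-Ab was not accompanied by a change in any member that passed the test. Between the Scl-Ab and vehicle-treated models, 0 of 79 members passed (limma), while 7.44% of all tested genes did (2.64% higher and 4.8% lower). At an unadjusted p below 0.05 there were 4, and a Wilcoxon test (exact where values were not tied) with the same adjustment called 0. The median log2 difference was 0.01 over members and -0.01 over all genes. By complex the median was 0.01 in complex I, 0.01 in complex II, 0.07 in complex III, -0.03 in complex IV and 0.00 in complex V. For Cox4i1 the difference was -0.06 ± 0.17, for Sdha 0.04 ± 0.256 and for Atp5b 0.09 ± 0.24 (SE). These standard errors exceeded the estimates, so the spread between libraries left room for differences larger than the estimates in either direction. The 4 members with an unadjusted p below 0.05 were Cox6a2 (1.73 ± 0.69), Atp5g1 (0.25 ± 0.094), Atp5sl (0.27 ± 0.105) and Atp5s (-0.23 ± 0.083), with adjusted p of 0.114, 0.0893, 0.108 and 0.0809. With log2 Ucp1 as a covariate 1 member passed, Atp5s, with a difference of -0.25 (adjusted p = 0.0458), against 5.94% of genes lower and 4.07% higher (10% in all). The median member then lay at -0.10, where all genes lay at -0.01. With linear Ucp1 4 passed, Ndufa3 and Atp5sl higher and Ndufb3 and Atp5s lower, against 5.31% of genes higher and 8.54% lower.

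The Scl-Ab model and WT differed in 13 of 79 members, 10 lower and 3 higher, against 30.5% and 19.8% of all tested genes (50.4% in all). This comparison and that of the vehicle-treated model share the WT libraries. Lower were Ndufa2, Ndufa7, Ndufa13, Ndufb10 and Ndufv3 in complex I, Sdhc in complex II, Cox4i2 and Cox7a2l in complex IV, and Atp5j and Atp5s in complex V. Ndufv3 had values of 94.5, 118 and 183 in Scl-Ab and 156, 168 and 177 in WT libraries (log2 fold change -0.45 ± 0.123, adjusted p = 0.00329). Sdhc had 40.7, 58.4 and 91.1 in Scl-Ab and 68.2, 76.3 and 83.6 in WT libraries (-0.32 ± 0.123, adjusted p = 0.0323), with ranges that overlapped, and this call was lost in 4 of 12 other settings and without any 1 of 6 libraries. The call of Ndufa2 was lost in 4 of 12 settings and without any 1 of 5 libraries, and that of Ndufa13 in 4 of 12 settings and without any 1 of 4 libraries. Atp5s had 2.88, 3.41 and 5.02 in Scl-Ab and 4.22, 4.95 and 5.81 in WT libraries (-0.35 ± 0.081, adjusted p = 0.000731). Cox4i2 had 3.61, 5.39 and 6.80 in Scl-Ab and 5.56, 6.91 and 8.61 in WT libraries (-0.36 ± 0.109, adjusted p = 0.00755). Ndufb10, Cox7a2l and Atp5j fell by 0.35 ± 0.122, 0.35 ± 0.081 and 0.26 ± 0.054 on the log2 scale (adjusted p = 0.0181, 0.000635 and 0.000256). Atp5g1, at 89.8 ± 16.3 in Scl-Ab (n = 10) and 103 ± 7.89 in WT libraries (n = 10), did not pass (adjusted p = 0.0576). With log2 Ucp1 as a covariate 38 members were lower and 2 higher, against 29.4% and 20.3% of genes (49.6% in all). With linear Ucp1 60 were lower and 2 higher, against 30.7% and 20.8%.

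The higher members were Ndufa4l2, Cox6b2 and Cox6a2. Cox6b2 averaged 6.09 ± 0.965 in Scl-Ab and 4.58 ± 0.833 in WT libraries (log2 fold change 0.35 ± 0.09, adjusted p = 0.00188, n = 10 each). Cox6a2 (chr7:128205435-128206387) had the largest difference of any member, with values of 0.185, 11.8 and 38.6 in Scl-Ab, 0.166, 1.80 and 21.6 in vehicle-treated and 0.074, 2.14 and 18.02 in WT libraries. Its log2 fold change against WT was 1.82 ± 0.672 (adjusted p = 0.0247). Each group held libraries below 1, and at least 1 library above 15, which in WT was replicate 27 alone, so the ranges overlapped. Heart muscle markers were read beside it. The summed value of the 12 was 60.9 to 1189 in Scl-Ab, 39.8 to 569 in vehicle-treated and 38.3 to 553 in WT libraries. No marker was at 0 in a group, and Myh7 was under 1 in each. Of the 11 tested, 7 were higher in Scl-Ab than in WT, where 19.8% of all genes were higher. Myl7, Actc1, Pln and Ryr2 did not pass, with Ryr2 at -0.27 ± 0.14. Between the Scl-Ab and vehicle-treated models 1 of 11 passed (Nppa, higher), where 2.64% of all genes were higher. The highest Cox6a2 values, 38.6 and 35.7 in Scl-Ab replicates 14 and 10, stood beside heart marker sums of 1032 and 1189, and the lowest Scl-Ab value, 0.185 in replicate 17, beside 60.9. With heart markers as a second covariate, the slope of Cox6a2 on Ucp1 was -0.0015 (adjusted p = 0.984), against 0.46 ± 0.156 without it (adjusted p = 0.0266). The part of heart muscle in the group difference was not tested. The call was lost in 4 of 12 other settings, the replicates left out one by one not counted.

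Slopes fitted separately in each group looked steeper in the model. The median slope over members was 0.22 in vehicle-treated, 0.26 in Scl-Ab and 0.06 in WT libraries. In the test of the difference, 47 members were steeper in the vehicle-treated model than in WT and 54 in the Scl-Ab model than in WT, where 4.05% and 3.33% of genes were steeper, 3.2% and 2.46% were less steep, and 7.25% and 5.79% differed in all. Between the Scl-Ab and vehicle-treated models 0 differed (limma; 0 also at an unadjusted p below 0.05), and 0 of all genes did. The differences to WT rested on WT replicate 20, whose Ucp1 of 6.60 stood far below the next WT value of 38.0: without it 0 members differed in either comparison. The count for the vehicle-treated model was 27 without vehicle-treated replicate 1 and 27 without replicate 9, and that for the Scl-Ab model was 14 without Scl-Ab replicate 12. They also came to 0 with Ucp1 on the linear scale and within the range of Ucp1 that all groups share (49.7 to 252).

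Genes that act with the chain but lie outside the symbol rule were read in the same fits. All 6 other chain genes (Cycs, Cyc1, Cox8a, Cox8b, Cox7a1 and Ndufab1) rose with Ucp1, where 13.5% of all genes did. The steepest were Cox7a1 and Cox8b, which are known as forms of brown fat and muscle, with slopes of 0.86 ± 0.027 and 0.85 ± 0.032 (adjusted p = 1.02e-19 and 4.26e-18), above that of every kept member. Of 13 citric acid cycle genes 13 rose with Ucp1, and of 16 fatty acid oxidation genes 15, against the same 13.5% of all genes. Suclg1, a subunit of succinyl-CoA ligase, stood at 0.36 ± 0.033. Cpt1b, the muscle form of carnitine palmitoyltransferase, and Acaa2, the thiolase of the pathway, stood at 0.74 ± 0.03 and 0.53 ± 0.037. Against WT, 1 of the 13 citric acid cycle genes, Suclg2, was lower in the vehicle-treated model (32.6 ± 6.52 and 44.5 ± 1.78, adjusted p = 0.000306), and 0 of the 16 fatty acid oxidation genes passed (limma, 0 also at an unadjusted p below 0.05). Of all genes 31% were lower and 22.7% higher in that comparison.

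Of 46 assembly factors 24 rose with Ucp1 and 0 fell, against 13.5% and 17.7% of all genes. Atpaf2, for ATP synthase, and Coa7, for complex IV, had the smallest p (slopes 0.22 ± 0.026 and 0.11 ± 0.016). The assembly factors differed from WT in both directions, with 6 higher and 5 lower in the vehicle-treated model, against 22.7% and 31% of all genes. Surf1, which helps to build complex IV, averaged 38.3 ± 2.74 in vehicle-treated, 36.7 ± 2.95 in Scl-Ab and 52.7 ± 2.08 in WT libraries (adjusted p = 6.43e-09 and 3.58e-10 against WT). Coa5, another complex IV factor, was higher, at 27.6 ± 6.60 in vehicle-treated and 16.7 ± 1.55 in WT libraries (adjusted p = 0.00015). Between the Scl-Ab and vehicle-treated models 3 assembly factors passed, all lower, against 4.8% of all genes: Ndufaf2 (16.02 ± 1.61 and 19.02 ± 2.07), Cox16 (46.4 ± 3.25 and 53.8 ± 5.13) and Ndufaf5. Of 22 mitochondrial ribosome genes 19 rose with Ucp1, against 13.5% of all genes, led by Mrps2 and Mrpl9 (0.13 ± 0.02 and 0.11 ± 0.018). In the vehicle-treated model 5 were lower than in WT, against 31% of all genes, among them Mrpl13 (38.0 ± 2.84 and 42.4 ± 2.27) and Mrps12 (18.55 ± 5.92 and 27.75 ± 3.73).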

How the data were processed

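RNA from 29 aortic arches was sequenced as stranded mRNA libraries. The deposited files hold 1 FPKM-like value per gene symbol and library, which the authors name FPKQ without spelling it out. Libraries agreed in their upper quantile (85th percentile, 6.99 to 7.30) but not in their totals, and no rescaling was added. Genome build GRCm38 and DESeq2 1.10.1 are named in the submitters' processing notes with no role given, and an aligner is not given in the sources used here. Groups came from the titles. The members and gene lists were chosen with earlier results of these data known.

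Here log2(value + 1) was fitted with limma 3.58.1 in R 4.3.3 (trend, robust) for the 13510 genes that reached 1 in 9 or more libraries, with 3 group means over 29 libraries and Benjamini-Hochberg adjustment over all genes. Each gene had 1 residual variance for all groups, although the members varied less in WT than in the model. Fold changes on this scale understate the change of low genes. For the slope, log2(Ucp1 + 1) was added as a covariate. The fit was also run on simulated data with independent noise and the same spread in all groups. The members here vary together and their spread differs between groups, so that run does not show how the test behaves for them. Named members were, per complex, those with the highest and lowest WT mean, up to 3 called members with the largest fold change per comparison, the 2 largest and the smallest slope, the paralogue sets, all of complex II, the members that are not structural subunits, and for each list the 2 genes with the smallest p. The values of 1 gene that this rule names are not reported here. Others named were chosen after their values were seen. Gene coordinates are from GENCODE M21. Alternatives were other scalings, a Wilcoxon test, GC content and length correction, further covariates, subsets of libraries and leaving out each library. P-values measure the spread between libraries.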

Additional observations from a re-analysis of the deposited data

Results flagged for a closer look

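A library was set apart when its gap to the nearest library of its group exceeded the 95% critical value of Dixon's test. Of 117 groups of values checked this marked 9, and chance marks about 1 in 20. WT replicate 28 accounted for 7 of the 9. It stood highest for Cox4i1 (493.1, next 435), Cox6b1 (374, next 275), Cox7b (196, next 160), Ndufa4 (412, next 334), Ndufa10 (71.95, next 53.8), Ndufb8 (231, next 170) and Uqcrfs1 (94.8, next 70.1). The same library had the highest Ucp1 (252) and the highest adipocyte marker sum (2987) in WT, and their part in its values was not tested. WT replicate 27 stood highest for Cox6a2 (18.02, next 6.67) and also had the highest heart marker sum in WT (553). Vehicle-treated replicate 1 stood highest for Atp5s (6.26, next 4.86).

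The slope on Ucp1 differed from that in WT for 47 members in the vehicle-treated model and for 54 in the Scl-Ab model. Both counts fell to 0 without WT replicate 20.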

How the results depend on the processing

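Counts of members that differed between groups depended on how Ucp1 was treated and less on scaling. For the vehicle-treated model against WT (14), a Wilcoxon test called 9, log2 Ucp1 as a covariate 28, linear Ucp1 59, log2 Ucp1 without WT replicate 20 31, and leaving out the 4 libraries at the ends of the Ucp1 range 40. For Scl-Ab against vehicle (0) the same settings gave 0, 1, 4, 6 and 3, and both scalings to equal totals gave 1. For the Scl-Ab model against WT (13) the covariate settings gave 40, 62 and 42, leaving out 4 libraries 26, and equal totals without mitochondrial copies and top genes 8. Of all genes, 53.7%, 7.44% and 50.4% passed in these 3 comparisons without a covariate and 56.3%, 10% and 49.6% with log2 Ucp1. The other counts in this paragraph are of members only and are not set against all genes here. For the slope on Ucp1 (72), WT libraries alone gave 19 and the shared range of Ucp1, with 15 libraries, 8. For slopes that differ from WT (47 and 54), linear Ucp1, leaving out 4 libraries and the shared range each gave 0. With 1 library left out at a time the counts ran from 13 to 17, from 0 to 2, from 10 to 16, from 71 to 73, from 0 to 60 and from 0 to 60. The lowest slope-difference counts came without WT replicate 20. The count for Scl-Ab against vehicle was 1 without vehicle-treated replicate 8, vehicle-treated replicate 9 or Scl-Ab replicate 10, and 2 without Scl-Ab replicate 15. Linear Ucp1, the end libraries, the shared range, the slope differences and the fit without WT replicate 20 were added after seeing the data. The cause of these shifts was not tested.

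Single slopes on Ucp1 were followed through the settings for a subset of members only. Those that changed sign were Ndufa13 (-0.0114), Ndufa2 (-0.0205), Ndufb7 (-0.0067) and Atp5j (-0.0026) in WT alone, Cox6a2 with heart markers as a second covariate (-0.0015), and Cox6a2 (-0.62), Cox7a2l (-0.10) and Atp5g3 (-0.0269) in the shared range. None of these passed the test. Over all 79 members, 9 had a slope below 0 in WT in the fit with 1 slope per group, against 3 in the main fit. No paired analysis was possible because each replicate number occurs once in the series. Total read numbers are unknown, and low members such as Cox6a2 rest on few fragments in some libraries.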

Other observations

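Subunits encoded by mitochondrial DNA have no rows of their own in the files, but 7 gene models in a block of nuclear chromosome 1 (positions 24611535 to 24616197, GRCm38) match the genes for mt-Nd3, mt-Nd4, mt-Nd4l, mt-Co1, mt-Co2, mt-Co3 and mt-Atp6 over the aligned bases with an identity of 99.7 to 100%. Reads from the mitochondrial genes and from these copies cannot be told apart. Their summed value was 55291 to 185858 in vehicle-treated, 48298 to 173904 in Scl-Ab and 73458 to 118160 in WT libraries. All 7 rose with Ucp1, against 13.5% of all genes, with a median slope of 0.22. Between groups 0 of 7 passed in any pair (limma, 0 also at an unadjusted p below 0.05). Of all genes 53.7% passed for the vehicle-treated model against WT, 50.4% for the Scl-Ab model against WT and 7.44% between the models. Totals of all values include these copies.

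Of 15 regulators of mitochondrial biogenesis, 5 rose with Ucp1 and 1 fell, against 13.5% and 17.7% of all genes. Ppargc1b and Ppara, a coactivator and a nuclear receptor of oxidative metabolism, had slopes of 0.29 ± 0.027 and 0.34 ± 0.038 (adjusted p = 1.46e-09 and 4.95e-08), and Nrf1 had a slope of 0.00 ± 0.013 (adjusted p = 0.944). Against WT, 5 were lower in the vehicle-treated model and 0 higher, against 31% and 22.7% of all genes. Nrf1 averaged 6.41 ± 0.405 in vehicle-treated and 7.69 ± 0.556 in WT libraries (adjusted p = 0.000226), and Polg, the mitochondrial DNA polymerase, 7.65 ± 0.674 and 10.49 ± 0.906 (adjusted p = 3.42e-05). Polg and Polrmt, the mitochondrial RNA polymerase, were higher in the Scl-Ab than in the vehicle-treated model: Polg averaged 9.38 ± 1.80 and 7.65 ± 0.674 (adjusted p = 0.0364), and Polrmt 5.46 ± 1.13 and 4.396 ± 0.472 (adjusted p = 0.0491).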
